A study of Sus scrofa with 21 samples.

Results

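Proteasome subunits and ubiquitin conjugating enzymes were compared in the whole blood of DD and LW pigs. The members were all genes whose array name begins with PSM plus a subunit letter from A to G and a number, or with UBE2 plus a letter. PSMB8, PSMB9 and PSMB10, the interferon-inducible catalytic subunits, were left out, as was UBE2L6, which no probe is named for. The rule left 59 genes of the 48527 features named on the array, 38 of them proteasome genes and 21 of them ubiquitin conjugating enzyme genes, and all 59 were tested. The DD group was 10 SLAdd minipigs from 5 litters of an inbred line kept homozygous at SLA, the pig MHC locus. The LW group was 11 Large White pigs, a commercial breed, from 6 litters. All animals were 60 days old and had free access to a standard feed. Blood was drawn into tubes that stabilise RNA, and each pig was hybridised to 1 one-colour array. The arrays lay on 3 chips, each of which held both breeds. The study processed 24 pigs and left out 3 as outliers, and it reported a technical bias of the third chip. Littermates share a sow, and line, breed and herd history cannot be told apart in this design.

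Proteins are marked for degradation by a relay of enzymes. An E1 enzyme activates ubiquitin, an E2 or conjugating enzyme carries it, and an E3 ligase helps the E2 to place it on the target. The proteasome then unfolds and cuts the marked protein in a barrel of alpha and beta rings, capped by a regulatory particle whose ATPases drive unfolding. Some E2 enzymes carry a relative of ubiquitin, such as NEDD8, in its place. In blood the pathway works in every nucleated cell, and reticulocytes use it to clear proteins as they mature.

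Of the 59 members, 9 differed between the breeds in limma at an adjusted p under 0.05, against 21.0% of the 35578 features tested, so that the members' share of 15.3% lay below the background. Higher levels in DD pigs were called for PSMF1, PSMD3, UBE2D3 and UBE2D2, which is 6.78% of the members against 11.4% of all features. Lower levels were called for 5 members, among them UBE2NL, PSMD9, PSMD6 and UBE2J1, which is 8.47% against 9.57%. At an unadjusted p under 0.05 there were 20 members, or 33.9%, against 36.7% of all features. No member had breeds whose levels did not overlap, against 0.675% of all features. The median log2 fold change (FC, DD minus LW) of the members was -0.14, against -0.04 over all features, and 74.6% of the members against 54.8% of all features had a negative value. Most differences were small, since 43 of the 59 members had a log2 FC under 0.3 in size. Leaving out 1 pig moved the 9 calls to between 3 (without LW_18, when 6.34% of all features were called) and 22 (without DD_06, 33.0%). In whole blood, fewer cells of a type and less RNA per cell cannot be told apart.

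**Figure D1:**
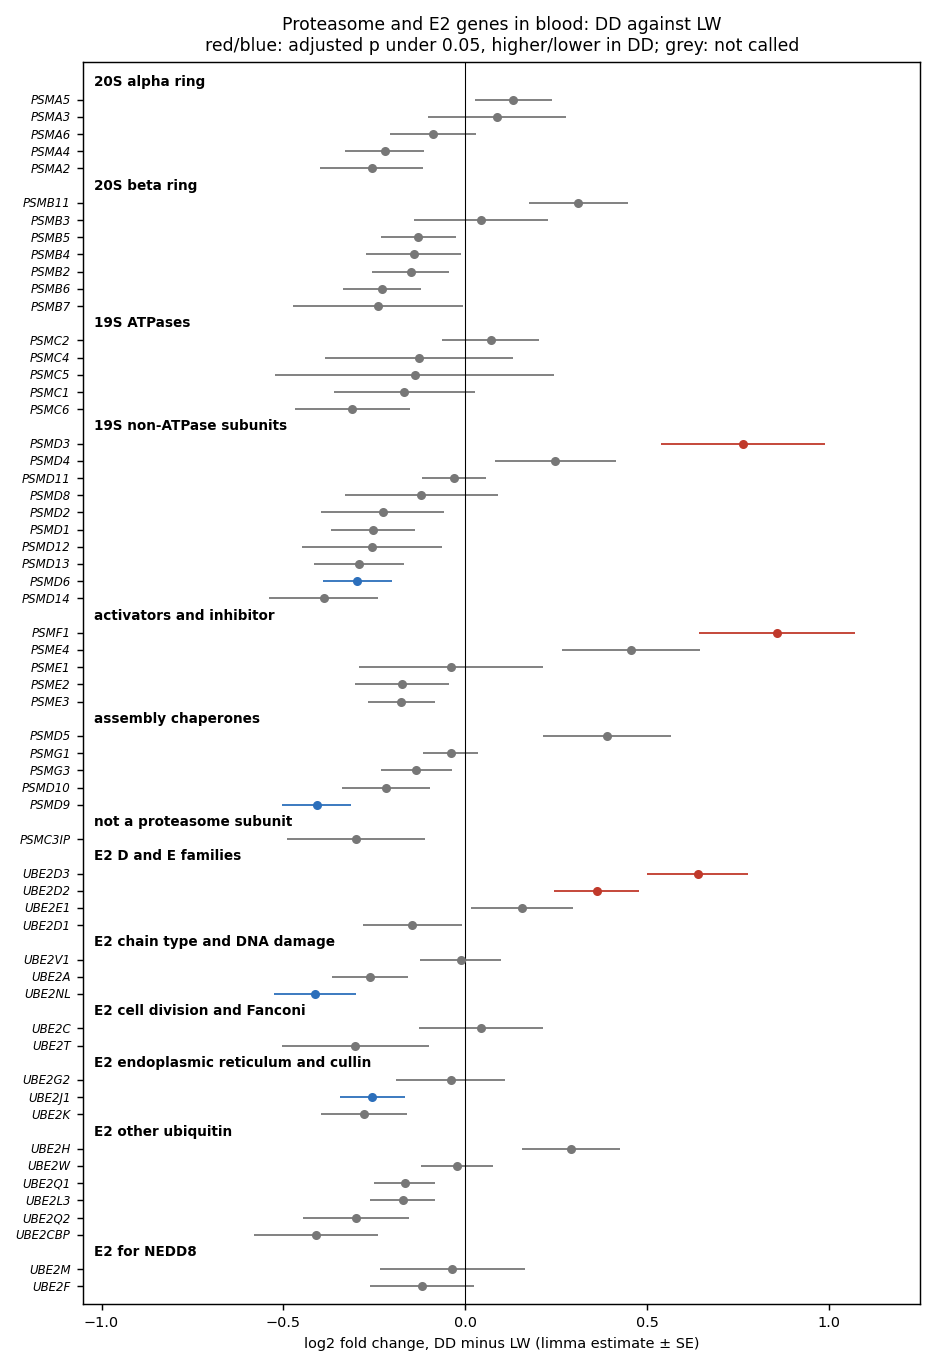
Log2 FC (DD minus LW) of the members reported here with its standard error, grouped by role, with 8 called genes in red (higher) or blue (lower). The called genes are spread over the roles and run from -0.41 for UBE2NL to 0.86 for PSMF1, while most of the other members lie near 0.

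Facts of the arrays that move with breed bear on each of these calls. DD arrays were dimmer than LW arrays, at 7.53 ± 0.54 (SD, n = 10) against 8.22 ± 0.38 (SD, n = 11) for the log2 of the array's 75th percentile signal. By chip, DD arrays had means of 7.95, 7.55 and 7.09, and LW arrays of 8.02, 8.31 and 8.36. With brightness as a covariate limma called 0 of the 59 members, 2 of them with an unadjusted p under 0.05, and 2.19% of all features. In that fit the median log2 FC was -0.004 for proteasome genes, -0.03 for E2 genes and 0.006 over all features. Breed and brightness cannot be told apart on chips 2 and 3. Some markers of blood cell types were called as well, as were 21.0% of all features. Of 6 T cell markers, 2 were lower in DD pigs, with a mean marker level of 8.67 to 9.84 in DD and 9.26 to 10.07 in LW. Of 6 erythroid markers, 1 was higher, with mean levels of 8.60 to 10.36 and 8.36 to 9.62. Of 5 interferon-induced genes, 3 were higher, with mean levels of 11.28 to 13.66 and 10.53 to 11.74. Of 4 monocyte markers 1 was lower (7.27 to 8.33 and 7.80 to 8.59), and of 3 platelet markers 1 was lower (8.76 to 10.35 and 9.17 to 10.63). No B cell marker of 3 (7.41 to 9.05 and 7.31 to 9.35), no granulocyte marker of 5 (8.78 to 10.87 and 9.53 to 10.57) and no proliferation marker of 6 (7.30 to 8.59 and 7.48 to 9.12) was called, and none of those 3 lists had a gene at an unadjusted p under 0.05 in limma. The part of cell makeup in the members' values was not tested.

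PSMF1 had the largest difference of the 59 members. It encodes PI31, a protein first described as an inhibitor of the proteasome core. Log2 levels, which here are the deposited values after removal of the chip effect, ran from 5.90 (DD_13) through a median of 6.78 to 7.69 (DD_21) in DD pigs. In LW pigs they ran from 5.37 (LW_12) through 5.61 to 6.71 (LW_09). All 10 DD pigs lay above the LW median and 5 of them above every LW pig. In log2 FC the difference was 0.86 ± 0.21 (SE, adjusted p = 0.0131 in limma), and it was positive on each chip, at 0.74, 0.72 and 1.17. Between litter means, an exact permutation test (two-sided) gave p = 0.0108. That test was run on each member over every division of the 11 litters into 5 and 6, is not adjusted, and cannot go below 0.00216. With array brightness as a covariate the log2 FC of PSMF1 was 0.42 (limma adjusted p = 0.60). PSMF1 was read by 1 probe, whose match to the pig genome was not checked. The call was kept when any 1 pig was left out.

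The other regulators of the core were not called. PSME4, the PA200 activator of the nucleus, had a log2 FC of 0.45 ± 0.19 (limma adjusted p = 0.088). PSME1 and PSME2 form the interferon-inducible activator ring, and they had log2 FC of -0.04 ± 0.25 and -0.17 ± 0.13. PSME3, their nuclear relative, had a log2 FC of -0.18. The immune and nuclear activators thus gave no call, and PSME1 had a wide error that is taken up with the array quality measure further on.

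No member of the alpha and beta rings passed the test in limma, against 21.0% of all features. The rule takes names in capitals. The beta subunit psmb1, named in small letters, was called lower (log2 FC -0.42 ± 0.12, limma adjusted p = 0.023). At an unadjusted p under 0.05 there were 0 alpha and 2 beta members, PSMB6 and PSMB11, against 36.7% of all features. The alpha subunits gate the barrel, and their log2 FC ran from -0.26 for PSMA2 to 0.13 for PSMA5 around a median of -0.09 over 5 genes. The beta subunits hold the cutting sites. The 7 members among them ran from -0.24 for PSMB7 to 0.31 for PSMB11, the subunit of the thymus, around a median of -0.14. PSMB5, the chymotrypsin-like subunit that PSMB8 replaces in immune cells, had a log2 FC of -0.13 ± 0.10. The interferon-inducible subunits that the rule leaves out gave no call. Their log2 FC was 0.65 ± 0.33 for PSMB8 (limma adjusted p = 0.161), 0.08 for PSMB9 and -0.17 for PSMB10.

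The 5 member ATPases of the cap were not called in limma, with 0 at an unadjusted p under 0.05 against 36.7% of all features. Among the members, the cap's other subunits gave 1 call in each direction. Outside the rule by letter case, the ATPase psmc3 had a log2 FC of 0.25 ± 0.10 (limma adjusted p = 0.066). The cap subunit psmd7, also in small letters, was called lower (-0.32 ± 0.10, limma adjusted p = 0.034). The log2 FC of the 5 member ATPases ran from -0.31 for PSMC6 to 0.07 for PSMC2. Of the 10 non-ATPase subunits, 8 had a negative log2 FC and the median was -0.24. PSMD14, which cuts the ubiquitin chain off the target, had a log2 FC of -0.39 ± 0.15 and missed the threshold (limma adjusted p = 0.065). Over the 27 members of the core and the cap, 1 was called higher and 1 lower, against 11.4% and 9.57% of all features.

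PSMD3, a scaffold subunit of the cap, was the member called higher. Its levels were 7.13 (DD_06), 8.44 and 9.09 (DD_21) as the lowest, median and highest of DD pigs. The same values in LW pigs were 6.84 (LW_22), 7.45 and 8.78 (LW_07). The breeds overlapped widely, with 9 of 10 DD pigs above the LW median and 1 above every LW pig. PSMD3 had a log2 FC of 0.76 ± 0.23 (limma adjusted p = 0.0261), with p = 0.0152 in the exact permutation test of litters. The difference was uneven between chips, at 0.14, 0.59 and 1.68, and with brightness as a covariate it was 0.00. The call was lost without DD_21 (log2 FC 0.66), DD_23 (0.73), LW_18 (0.71) or LW_22 (0.68), at limma adjusted p of up to 0.078. The value rests on 1 probe. Another feature that RefSeq pairs with PSMD3 and that the array names LOC100512253 had a log2 FC of -0.26 ± 0.11 (limma adjusted p = 0.087), so the features named for this gene disagreed in sign.

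PSMD6, a subunit of the lid of the cap, was the member called lower. DD pigs had levels of 8.85, 9.12 and 9.47 as lowest, median and highest. LW pigs had levels of 9.13, 9.43 and 9.63. In 9 of 10 DD pigs the level was under the LW median, and in 5 it was under every LW pig. The fitted difference was -0.30 ± 0.09 (limma adjusted p = 0.0328), at -0.07, -0.30 and -0.54 on the 3 chips and -0.10 with brightness as a covariate. By litters the exact permutation p was 0.0130. The call was lost when any 1 of 11 pigs was left out, which were DD_08, DD_10, DD_19, DD_21, DD_23, LW_05, LW_12, LW_14, LW_18, LW_22 and LW_24, with limma adjusted p of up to 0.088 and a log2 FC between -0.30 and -0.27. It was also lost in limma on litter means (-0.29, adjusted p = 0.058). The same held with 75th percentile scaling, without the filter on dim probes and with the probe of the highest mean. In all, PSMD6 was called in 8 of 19 alternative fits.

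PSMD9, read by 1 probe, was called lower and kept that call when any 1 pig was left out. It encodes p27, a chaperone that helps to assemble the ATPase ring and is not part of the finished proteasome. DD levels were 9.80, 9.93 and 10.24 as lowest, median and highest, and LW levels were 10.14, 10.35 and 10.73. All 10 DD pigs lay below the LW median and 8 of them below every LW pig. A log2 FC of -0.41 ± 0.10 was fitted (limma adjusted p = 0.00858), at -0.28, -0.36 and -0.62 on the 3 chips, and litters gave an exact permutation p = 0.00433. With brightness as a covariate it was -0.30 (limma adjusted p = 0.24). The other 4 assembly chaperones were not called. Apart from PSMD5, which few arrays measured, their log2 FC ran from -0.22 for PSMD10 to -0.04 for PSMG1. PSMC3IP carries an ATPase's name but acts in meiotic recombination, and it had a log2 FC of -0.30 ± 0.19.

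**Figure D2:**
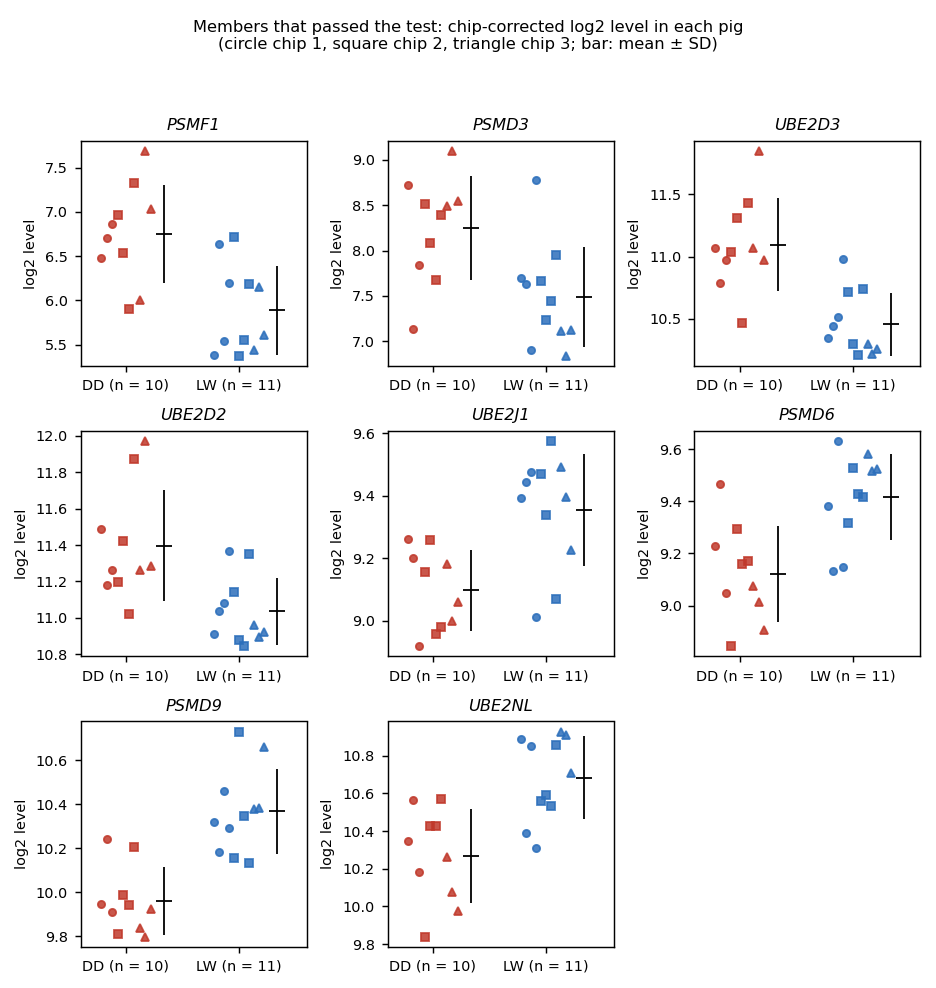
Log2 level after removal of the chip effect in each of the 10 DD and 11 LW pigs for 8 called members, with the group mean and SD as a bar. Every gene shows overlap between the breeds, least in PSMD9, where 8 of 10 DD pigs lie below all LW pigs.

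Among the E2 members, the calls that were higher in DD pigs were UBE2D3 and UBE2D2. Both work with many E3 ligases and often place the first ubiquitin. UBE2D3 levels were 10.47 (DD_13), 11.05 and 11.85 (DD_21) as lowest, median and highest of DD pigs. In LW pigs they were 10.21 (LW_14), 10.34 and 10.98 (LW_07). All 10 DD pigs lay above the LW median and 6 above every LW pig. UBE2D3 had a log2 FC of 0.64 ± 0.14 (limma adjusted p = 0.00527), at 0.37, 0.57 and 1.04 on the 3 chips. By litters the exact permutation p was 0.00216, the smallest possible. With brightness as a covariate the log2 FC was 0.31 (limma adjusted p = 0.40). The call was kept when any 1 pig was left out.

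UBE2D2 levels were 11.02, 11.27 and 11.97 as lowest, median and highest of DD pigs, and 10.84, 10.96 and 11.37 of LW pigs. All 10 DD pigs lay above the LW median and 4 above every LW pig. Its log2 FC was 0.36 ± 0.12 (limma adjusted p = 0.0346), at 0.21, 0.32 and 0.58 on the 3 chips, and litters gave an exact permutation p = 0.0108. With brightness as a covariate the value was 0.11. The call was lost without any 1 of 12 pigs, which were DD_01, DD_16, DD_19, DD_21, DD_23, LW_02, LW_05, LW_12, LW_14, LW_18, LW_22 and LW_24, at limma adjusted p of up to 0.086 and a log2 FC between 0.29 and 0.38. It was also lost without the sow block (limma adjusted p = 0.052). Siblings correlated at -0.11 in the reported fit with that block. Of all features, 21.0% were called with the block and 14.4% without it. In all, UBE2D2 was called in 10 of 19 alternative fits. Among these is the fit with RefSeq names, which kept the array's name for every member. That fit could not move the probes named UBE2D2 to UBE2D3.

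These genes cannot be taken as separate results, because their probes share a transcript. RefSeq (Sscrofa11.1) places UBE2D2 at chr2:141397937-141459821 and UBE2D3 at chr8:118218224-118229002, yet it pairs the transcript of 3 of the 4 probes named UBE2D2 with UBE2D3. The sequences are shown as the array gives them because they carry that identity. Capitals mark bases that the UBE2D3 probe A_72_P223194 shares with the others, and in A_72_P223194 itself those shared with A_72_P440797.
A_72_P223194, named UBE2D3: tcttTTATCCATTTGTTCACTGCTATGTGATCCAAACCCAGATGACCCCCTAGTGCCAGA
A_72_P440797, named UBE2D2: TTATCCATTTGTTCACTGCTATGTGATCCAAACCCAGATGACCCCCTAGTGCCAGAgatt
A_72_P171486, named UBE2D2: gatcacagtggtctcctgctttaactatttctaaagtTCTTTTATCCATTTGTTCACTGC
A_72_P531263, named UBE2D2: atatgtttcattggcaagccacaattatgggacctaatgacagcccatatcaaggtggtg

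The probe A_72_P440797 shares 56 bases with A_72_P223194, A_72_P171486 shares 23, and A_72_P531263 lies elsewhere on the transcript. By probe, the log2 FC was 0.61 ± 0.15 for A_72_P223194 and 0.67 ± 0.17 for O9515, the other probe named UBE2D3. The 3 probes named UBE2D2 on that transcript had log2 FC of 0.55, 0.56 and 0.55 (limma adjusted p = 0.0203, 0.0138 and 0.00959). The last probe named UBE2D2, A_72_P105491, which RefSeq pairs with no gene, had a log2 FC of -0.22 ± 0.09 (limma adjusted p = 0.098). All 5 probes with a positive difference thus lie on the UBE2D3 transcript or carry its name. UBE2D1 and UBE2E1, from the same families, were not called, with log2 FC of -0.15 and 0.16.

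**Figure D3:**
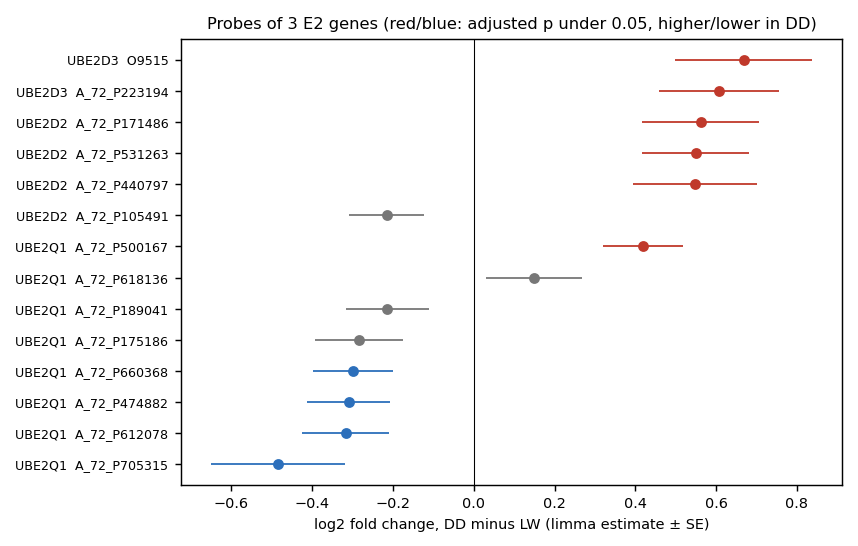
Log2 FC (DD minus LW) with standard error of the single probes named UBE2D3, UBE2D2 and UBE2Q1, with called probes in red (higher) or blue (lower). Within UBE2D2 the 3 probes on the UBE2D3 transcript lie near 0.55 and the last one at -0.22.

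Other E2 enzymes were called lower. UBE2NL is named for its likeness to UBE2N, the E2 that builds signalling chains linked through lysine. DD levels were 9.84, 10.30 and 10.57 as lowest, median and highest, and LW levels were 10.31, 10.71 and 10.93. Of the 10 DD pigs, 5 lay below every LW pig. UBE2NL had a log2 FC of -0.41 ± 0.11 (limma adjusted p = 0.0185), at -0.24, -0.32 and -0.74 on the 3 chips, and litters gave an exact permutation p = 0.00649. With brightness as a covariate it was -0.20. UBE2NL was read by 1 probe. Only without LW_18 was the call lost, at a log2 FC of -0.39 (limma adjusted p = 0.059). UBE2V1, a partner of UBE2N that has no active site of its own, had a log2 FC of -0.01 ± 0.11. The E2 enzymes of NEDD8 were not called, with log2 FC of -0.04 ± 0.20 for UBE2M and -0.12 for UBE2F. UBE2A, which marks histones and the DNA clamp PCNA, had a log2 FC of -0.26 ± 0.10 and was not called.

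UBE2J1 sits in the membrane of the endoplasmic reticulum and serves the removal of misfolded proteins there. Its levels were 8.92, 9.11 and 9.26 in DD pigs and 9.01, 9.39 and 9.57 in LW pigs, as lowest, median and highest. All 10 DD pigs were below the LW median and 4 below every LW pig. A log2 FC of -0.26 ± 0.09 (limma adjusted p = 0.0469) was fitted, with -0.20, -0.28 and -0.29 on the 3 chips and -0.12 with brightness as a covariate. By litters the exact permutation p was 0.00216, again the smallest possible. This call lay close to the threshold and was lost without any 1 of 15 pigs, all except DD_01, DD_06, DD_11, LW_07, LW_15 and LW_24, with limma adjusted p of up to 0.11 and a log2 FC between -0.27 and -0.23. It was also lost in limma on litter means (adjusted p = 0.069) and without the sow block (adjusted p = 0.068). In all, UBE2J1 was called in 6 of 19 alternative fits. UBE2G2 and UBE2K, from the same group of enzymes, had log2 FC of -0.04 and -0.28 and were not called.

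The E2 enzymes of cell division and of red cell maturation were not called. UBE2C, which works with the anaphase promoting complex, had a log2 FC of 0.04 ± 0.17, and UBE2T, which serves the Fanconi anaemia pathway, had -0.30 ± 0.20. UBE2H, an E2 that is abundant in erythroid cells, had a log2 FC of 0.29 ± 0.14 (limma adjusted p = 0.12). Its probes differed, at 0.55 and 0.03. UBE2Q1 had 8 probes and a log2 FC of -0.17 (limma adjusted p = 0.16) as a gene, but by probe 1 was called higher at 0.42 and 4 were called lower, from -0.48 to -0.30. PSMA5, with probes at 0.38 and -0.12, and PSMG1, with probes at -0.29 and 0.21, also had probes of opposite sign, so the mean over probes hides a difference between them.

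Of the 59 members, 51 were well above background on every array. UBE2G2 was so on 7 DD and 11 LW arrays, PSMB11, PSMD12 and UBE2Q2 each on 9 and 11, UBE2CBP on 4 and 9, PSMC3IP on 1 and 4, PSMD5 on 2 and 0, and PSMA3 on 1 and 0. No fold is given in the text for PSMD5 and PSMA3, since few arrays of either breed measured them.

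The members were also set against a measure of each array. For each array the gap between the signals of probes near the 3′ end and the 5′ end of the same transcript was taken over 470 transcripts of other genes whose probes lie at least 300 bases apart. A larger gap means less signal from the 5′ side. Whether RNA quality or labelling sets it was not tested. The gap was 1.702 ± 0.311 (SD, n = 10) in DD and 1.746 ± 0.318 (SD, n = 11) in LW pigs on the log2 scale, so its mean differed between the breeds by less than its spread. By chip it was 1.48, 1.81 and 1.78 in DD and 1.47, 1.73 and 2.13 in LW pigs. On chip 3 the gaps did not overlap, at 1.75 to 1.81 in DD and 1.96 to 2.28 in LW pigs. Breed and gap cannot be told apart on that chip. It was above 1.9 in 6 pigs, which were LW_22 (2.28), DD_16 (2.21), DD_13 (2.18), LW_18 (2.15), LW_15 (2.11) and LW_24 (1.96).

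Of the 59 members, 24 had a level that moved with the gap in limma at an adjusted p under 0.05, or 40.7%, against 19.6% of all features. A falling level was called for 12 members, or 20.3% against 8.63% of all features, and a rising level for 12, or 20.3% against 11.0%. Of the 38 proteasome genes, 9 fell and 4 rose with the gap, and of the 21 E2 genes, 3 fell and 8 rose. The ATPases of the cap held 4 of the 9 falling proteasome genes. PSMC5 had the steepest slope, at -3.50 ± 0.51 log2 units per unit of gap. PSMC4 followed with -2.39 ± 0.32, PSME1 with -2.30 ± 0.33, PSMB7 with -1.99 ± 0.34 and PSMD8 with -1.85 ± 0.29. Slopes of the rising members were shallower, up to 1.26 for UBE2T and 1.21 for PSMA2.

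The levels by array show the size of that spread. On the 12 arrays with a gap under 1.7, the deposited log2 level of PSMC5 lay between 9.13 and 9.62. On the 3 arrays between the limits it lay between 7.35 and 8.24, and on the 6 arrays with a gap above 1.9 between 5.63 and 8.18. PSMC5 was therefore lower on all 9 arrays with the larger gaps than on any of the other 12 and those 9 arrays, 5 DD and 4 LW, all lay on chips 2 and 3. PSME1 lay between 11.01 and 11.67 on the first set, 9.73 and 10.46 on the second, and 8.98 and 10.11 on the third. PSMA2 rose with the gap, and its ranges of 6.57 to 7.31, 6.57 to 6.63 and 6.89 to 7.77 overlapped.

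**Figure D4:**
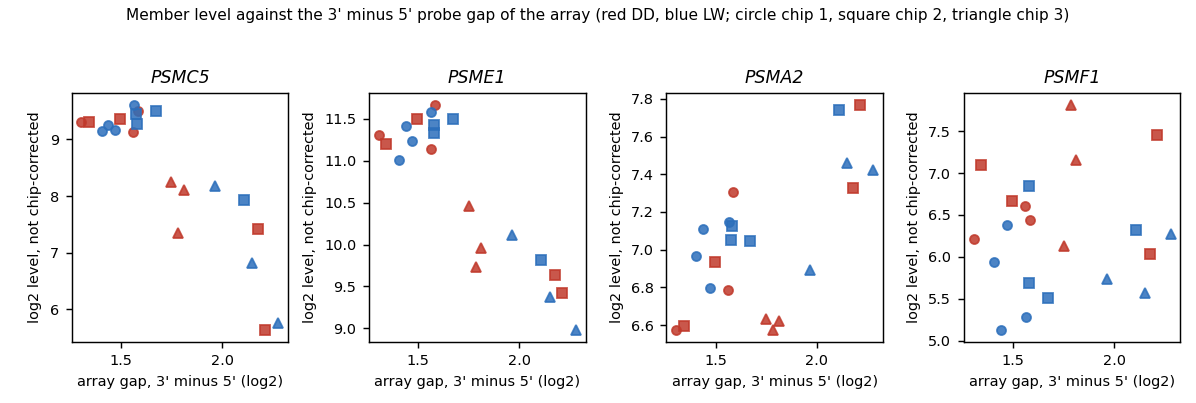
Deposited log2 level of PSMC5, PSME1, PSMA2 and PSMF1 in each pig against the gap between 3′ and 5′ probe signals of the same array (log2 units), with DD pigs in red and LW pigs in blue and a marker shape for each chip. PSMC5 lies above 9 on all 12 arrays with a gap under 1.7 and between 5.63 and 8.24 on the other 9.

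Probes of the same transcript differed in this slope by their position. The probes of PSMB4 that start at bases 188, 357 and 384 of the transcript had slopes of -3.64, -3.47 and -3.21, and those at bases 749 and 838 had 0.16 and 0.48. In PSMB6 the slopes were -2.73 at base 386, -0.43 at base 577 and 0.41 at base 763. PSME1 had -4.52 ± 0.53 at base 507 and -0.89 ± 0.29 at base 783. Among 9 pairs of probes of 1 transcript at least 300 bases apart, from 8 members, 8 pairs had the lower slope at the 5′ probe. The exception was 1 of the 2 pairs of UBE2Q1. The gap is itself a 3′ minus 5′ difference, so this direction cannot be read as particular to the members. The share of such pairs among the other transcripts is not given here. The error of the breed difference was larger at the 5′ probe in 6 of the 9 pairs, close to the 58.3% of the other transcripts.

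**Figure D5:**
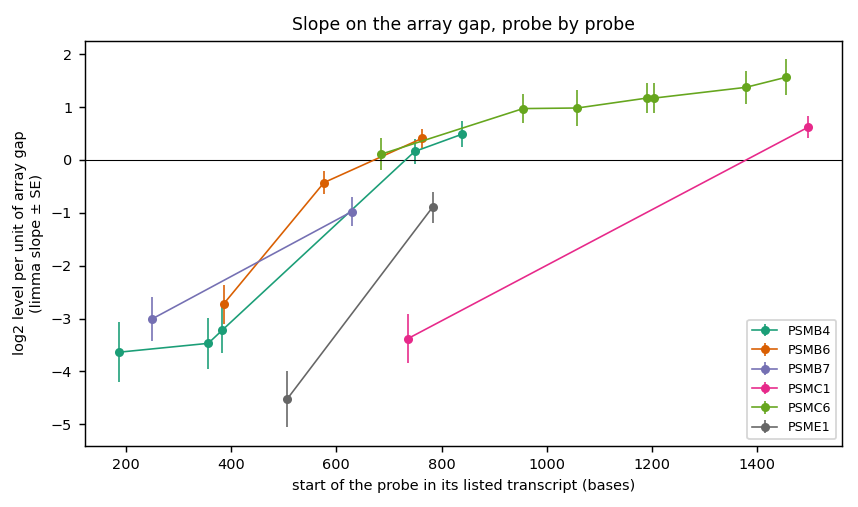
Slope of a probe's log2 level on the array gap, with standard error, against the start of the probe in its transcript (bases), for members with several probes on 1 listed transcript. Probes of PSMB4, PSMB6, PSMB7, PSMC1 and PSME1 nearer the 5′ end have the lower slopes.

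With the gap as a covariate, limma called the same 9 members between the breeds, and 17.8% of all features. That fit cannot separate breed from gap on chip 3, where the gaps of the breeds did not overlap. A test of whether the breed difference changes with chip called 0 of the 59 members and 0 of all features (limma), while at an unadjusted p under 0.05 it had 4 members, among them PSMD3, PSMA3 and UBE2Q2, and 14.9% of all features.

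Probes that share sequence with a member's probe under another name gave like values. In 36 pairs of probes from 24 genes that share at least 30 bases, the log2 FC differed by a median of 0.02 and at most by 0.25, in PSMD1. PSMD9 and its partner both had -0.41. Such pairs read nearly the same sequence and are not separate evidence of a breed difference. Another 24 features carry a member-like name in other letter case. Of these, 23 were tested and 5 called in limma, against 21.0% of all features. Psmd9 had a log2 FC of -0.39 (limma adjusted p = 0.00653), and Ube2e2, psmb1 and psmd7 were also lower, at -0.42, -0.42 and -0.32, while ube2r2 was higher at 0.50. Of the 10 such features with a member's letters, 6 had the sign of that member.

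Other genes of the pathway were called in both directions, as were 11.4% (higher) and 9.57% (lower) of all features. None of 9 E1 and other conjugation genes and none of 6 genes around NFE2L1 and NFE2L2, the factors that raise proteasome transcription, passed in limma. At an unadjusted p under 0.05 there were 2 and 0 of them, against 36.7% of all features. Of 9 genes of ubiquitin and its relatives, NEDD8 (log2 FC 0.42, limma adjusted p = 0.038) and the interferon-induced ISG15 (0.88, adjusted p = 0.025) were higher, and RPS27A, which encodes ubiquitin fused to a ribosomal protein, was lower (-0.77, adjusted p = 0.010). Of 9 proteasome-associated genes, USP14, a deubiquitinase of the cap, was higher (0.80, limma adjusted p = 0.013). UCHL5, another deubiquitinase of the cap, was lower (-0.41, adjusted p = 0.014), as was PAAF1, a chaperone of the ATPase ring (-0.97, adjusted p = 0.044). Of 8 shuttle receptor and VCP genes, UBQLN2, which brings marked proteins to the proteasome, was lower (-0.36, limma adjusted p = 0.038).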

How the data were processed

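Whole blood RNA was amplified, labelled with Cy3 and hybridised to an Agilent custom pig array. The deposited scanner files hold intensity values of each spot and its local background, and flags that the authors' software (Agilent Feature Extraction 10.7.3.1 in the submitters' processing notes) set for a signal well above background, used here as other data. The deposited log2 values are a matrix of all 21 arrays that the authors made with normexp background correction, log2 scaling and quantile normalization. A recomputation from the intensities correlated with it at 0.998 to 0.999 over probes. Quantile normalization gives all arrays the same distribution, so a shift of most genes cannot be seen.

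The 25% of probes with the lowest mean were removed, 45228 were kept, and kept probes of a gene name were averaged (127 of 128 member probes; 29 members rest on 1 probe). Limma 3.58.1 in R 4.3.3 fitted breed with chip as a fixed effect and sow as a random block (statmod 1.5.0), with Benjamini-Hochberg adjustment over all 35578 features. The sow correlation was -0.11. A level is the matrix value with the chip effect removed. Litter means were compared by exact permutation, and figures were drawn in Python 3.11.15. Genes named include the called members with 1 sign on all chips and the largest and smallest value of each role group. They also include a short preset list and members whose probes differ. Others, such as PSMD14 and PSME4, were named outside these rules. The members, lists and rules were chosen with earlier results of these data known. Alternatives were background correction, scaling, filter, probe choice, naming, the sow block, a limma fit on litter means, chips, array brightness and leaving out each pig. The gap covariate was chosen after seeing the data. The fit was tested on simulated data. Promoter motifs were not analysed here, and 1 member that was fitted and counted is not reported here.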

Additional observations from a re-analysis of the deposited data

Results flagged for a closer look

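One value stood apart from its group among the 31 members screened, which did not include PSMC5. The level of UBE2M in DD_16 was 8.34, while the other 9 DD pigs lay between 9.31 and 10.15. The ratio of that distance to the whole range was 0.532, above Dixon's critical value for 10 samples. Chance flags about 1 group in 20. PSMC5 was also lowest in DD_16 among DD pigs, at 5.54, with the next lowest at 7.32 in DD_13. The array of DD_16 had a gap of 2.21 between 3′ and 5′ probe signals, the second largest of the 21 arrays, and the slope of UBE2M on that gap was -1.61. Their part in the values of UBE2M and PSMC5 was not tested.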

How the results depend on the processing

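All 9 called members kept the sign of their difference under all 19 alternatives, and none reversed. The 4 calls among proteasome genes became 1 without the chip term, 0 on chip 1 alone, 0 on chip 2 alone, 1 on chip 3 alone, 2 without chip 2, 0 without chip 3 and 0 with brightness as covariate. Calls among E2 genes, of which there were 5, became 3 with 75th percentile scaling, 3 without the filter, 3 without the sow block, 1 without the chip term, 0 on chip 1 alone, 0 on chip 2 alone, 3 on chip 3 alone, 3 without chip 2, 0 without chip 3 and 0 with brightness. The share of all features called, 21.0% in the reported fit, moved as well, to 20.6% with 75th percentile scaling, 9.62% without the filter, 14.4% without the sow block, 5.42% without the chip term, 0.0899% on chip 1 alone, 0.200% on chip 2 alone, 17.6% on chip 3 alone, 14.2% without chip 2, 1.51% without chip 3 and 2.19% with brightness. At an unadjusted p under 0.05 the fits with 0 calls had 3, 1, 3 and 1 proteasome genes and 0, 1, 1 and 1 E2 genes (chip 1 alone, chip 2 alone, without chip 3, brightness). Leaving out 1 pig gave 2 to 14 proteasome calls and 1 to 8 E2 calls. The most came without DD_06 (14 and 8, where 33.0% of all features were called), and the fewest without DD_21, DD_23, LW_18 or LW_22 (2 proteasome genes each) and without LW_18 (1 E2 gene). Without LW_07 there were 7 proteasome calls, and E2 calls were 2 without DD_21 and 3 without DD_16, DD_19, DD_23, LW_02, LW_05, LW_12, LW_14 or LW_22. Scaling by the 75th percentile moved the median of all features by 0.10 and the share of higher calls from 54.3% to 69.3%. PSMD3 was not called when features were named by RefSeq. No paired analysis was possible because no individual number is shared between the breeds. The number of arrays, 10 and 11 on 3 chips, limits the precision of each value, and the causes of these changes were not tested.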
